A study of Mus musculus with 12 samples.

Results

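The genes of the major histocompatibility complex (MHC) and of antigen processing were followed in sorted cells of the mouse fetal liver (FL). The group was taken by name: all 42 genes whose name starts with H2-, the prefix of mouse MHC genes, and 10 genes named singly (*B2m*, *Tap1*, *Tap2*, *Tapbp*, *Psmb8*, *Psmb9*, *Psmb10*, *Nlrc5*, *Ciita*, and *Cd74*). These 52 genes are among the 38127 genes in the count tables. The rule takes them by name and uses no measured value, but it was set with earlier results of these data known. RNA was sequenced from Ter119-CD45- cells of C57BL/6 embryos, which lack the red cell marker Ter119 and the leukocyte marker CD45. P2 cells (Ter119-CD45-CD54-CD31-Kit+CD24+), CD324+ cells (labelled Ter119-CD45-CD54+CD31-), and CD31+ cells (Ter119-CD45-CD54+CD31+) came from E14.5 FL, and the last group had the labelled phenotype of the CD324+ cells at E18.5. Each of the 4 groups had 3 libraries, numbered as replicates 1, 2, and 3. The labels name no transgene and no treatment. The study gives the E14.5 libraries as independent litters. Whether embryos of a litter were pooled, and whether the E18.5 libraries are separate litters, is not given in the sources used here, so p-values may partly measure technical spread.

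MHC class I molecules show peptides from inside a cell to T cells. A heavy chain (in C57BL/6 mice H2-K1 and H2-D1) pairs with the light chain B2m. The peptides are cut by the proteasome, in which Psmb8, Psmb9, and Psmb10 replace the constitutive catalytic subunits under interferon, are carried into the endoplasmic reticulum by the transporter Tap1-Tap2, and are loaded with the help of tapasin, the product of *Tapbp*. The nonclassical heavy chains of the Q, T, and M regions serve narrower tasks, and Q10 is a soluble heavy chain secreted by the liver. Class II molecules, pairs such as H2-Aa with H2-Ab1, show peptides from outside the cell and are made mainly by dendritic cells, B cells, and macrophages. Their chaperones are the invariant chain Cd74 and the DM and O proteins. Nlrc5 is the transactivator of class I genes and Ciita that of class II genes.

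Total counts per library ranged from 40714017 to 64368883. Levels are counts per 1000000 (CPM) on library sizes adjusted by the TMM method, given as mean ± SD (n = 3 libraries), and 3 counts, the limit below which a gene was taken as not detected, correspond to between 0.0388 and 0.0944 CPM in a library. The sorts were checked with marker lists. The summed level of 7 hepatoblast genes was 69120 to 79780 CPM in CD324+ cells and at most 919 CPM in the other E14.5 cells, 8 endothelial genes summed to 9092 to 9641 CPM in CD31+ cells, and 8 erythroid genes to 2363 to 2457 CPM in P2 cells. The erythroid genes also summed to 228 to 393 CPM in CD324+ cells and 273 to 375 CPM in CD31+ cells. In P2 replicate 2 the endothelial genes summed to 374 CPM, against 56.3 and 99.5 CPM in the other P2 libraries. The E18.5 libraries held lung genes: 10 alveolar type 2 genes summed to 10880 to 23040 CPM, against at most 253 CPM in any E14.5 library. E18.5 replicate 1 stood apart, with 3435 CPM of the hepatoblast genes against 38270 and 49890 CPM in replicates 2 and 3. Fold changes of the genes most uneven in it are given below with and without it.

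Of the 52 genes, 14 had 0 counts in all 12 libraries and 19 had counts in all 12. The zeros included *B2m*, the light chain that every class I heavy chain needs. *B2m* (GRCm38, chromosome 2, bases 122147686 to 122153083) lies wholly within the annotated span of *Patl2*, with no exon base in common. The whole span also lay in other genes for *Psmb10* (within *Gm16156*), *H2-T23* and *H2-T24* (within *A930015D03Rik*), and *H2-Oa* and *H2-Pa* (within *BC051537*), and all 6 genes were at 0 in every library. The same pattern held across the tables. Among all protein-coding genes, 1008 of the 1027 with the whole span in other genes were at 0 in all libraries (98.1%), against 2187 of the 13886 with no base in another gene (15.7%). The share was 98.9% (838 of 847) where under 50% of the exon bases lay in exons of other genes, and 97.9% (594 of 607) where no covering gene was on the same strand. The values therefore behave as counts over whole gene spans, without strand, from which reads in more than 1 gene were left out. For these 6 genes a 0 says nothing about expression. A further 10 genes lost part of their span in this way, among them *Psmb8* (57.3%), *Ciita* (53.5%), *Tap2* (39.6%), *Tapbp* (34.2%), and *H2-T22* (23.3%). Their levels are not those of the whole gene, and only their differences between groups were read. The other 8 genes at 0 had free span.

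Of the 52 genes, 47 lie on chromosome 17 between bases 33915899 and 37483552 (GRCm38). The 200 bases before the RefSeq start of 6 class I genes are shown because these genes are closely related, and their levels across the sorted cells ranged from nearly even (*H2-D1*) to far higher in CD324+ cells (*H2-Q7*). Capitals mark matches to 4 motifs searched on both strands: the enhancer A palindrome (the first capitals in the window of *H2-K1*), the interferon response core GAANNGAAA, the box CCAAT, and TGACG, the core of cyclic AMP response elements. A match on the other strand is shown as its reverse complement. The sequences are from RefSeq (GRCm38.p6) and run 5′ to 3′ toward the start of the gene.
*H2-K1*, chr17:34000334-34000533, - strand: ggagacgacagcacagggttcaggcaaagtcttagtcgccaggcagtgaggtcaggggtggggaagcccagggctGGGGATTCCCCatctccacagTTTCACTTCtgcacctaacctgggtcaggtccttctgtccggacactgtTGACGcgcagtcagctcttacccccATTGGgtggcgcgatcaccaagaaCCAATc
*H2-D1*, chr17:35262894-35263093, + strand: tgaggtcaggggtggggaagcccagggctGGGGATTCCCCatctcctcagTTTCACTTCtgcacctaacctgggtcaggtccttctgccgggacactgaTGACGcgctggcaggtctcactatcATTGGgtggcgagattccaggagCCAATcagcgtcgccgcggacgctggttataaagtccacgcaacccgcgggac
*H2-Q6*, chr17:35424650-35424849, + strand: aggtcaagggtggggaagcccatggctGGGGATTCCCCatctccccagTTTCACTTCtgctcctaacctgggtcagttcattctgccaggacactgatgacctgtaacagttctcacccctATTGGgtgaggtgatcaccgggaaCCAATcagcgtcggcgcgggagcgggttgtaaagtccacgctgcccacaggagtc
*H2-Q7*, chr17:35438955-35439154, + strand: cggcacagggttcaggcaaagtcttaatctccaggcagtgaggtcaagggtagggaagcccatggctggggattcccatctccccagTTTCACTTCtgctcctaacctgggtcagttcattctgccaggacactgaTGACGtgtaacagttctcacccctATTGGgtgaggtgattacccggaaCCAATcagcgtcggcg
*H2-Q4*, chr17:35379417-35379616, + strand: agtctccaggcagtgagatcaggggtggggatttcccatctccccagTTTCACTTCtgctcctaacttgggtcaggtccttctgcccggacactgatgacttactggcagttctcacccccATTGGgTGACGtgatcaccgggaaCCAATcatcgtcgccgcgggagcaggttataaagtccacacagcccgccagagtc
*H2-Q10*, chr17:35469889-35470088, + strand: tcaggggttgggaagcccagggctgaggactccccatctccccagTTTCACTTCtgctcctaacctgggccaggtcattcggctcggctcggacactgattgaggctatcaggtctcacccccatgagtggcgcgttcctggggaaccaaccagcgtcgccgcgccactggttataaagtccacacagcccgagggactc

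Each of the 6 windows held the interferon response core, which is found in 7.52% of all 32851 promoter windows of 300 bases, which also take in the first bases after the start. The palindrome, found in 0.0304% of all windows, was in those of *H2-K1*, *H2-D1*, and *H2-Q6*. In 5 of the windows a CCAAT box on the reverse strand began 73 or 74 bases after the interferon response core, and a second on the forward strand followed 23 or 24 bases later. *H2-Q10* had no CCAAT in its window, a motif held by 37.4% of all windows. TGACG (20.8% of all windows) was matched before the start in *H2-K1*, *H2-D1*, *H2-Q7*, and *H2-Q4*. Of the 38 genes of the group whose RefSeq windows were used, 8 held the interferon response core, and those not shown were *H2-M2* and *H2-M3*. A match is a description of the letters and does not show that a factor binds there.

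**Figure D1:**
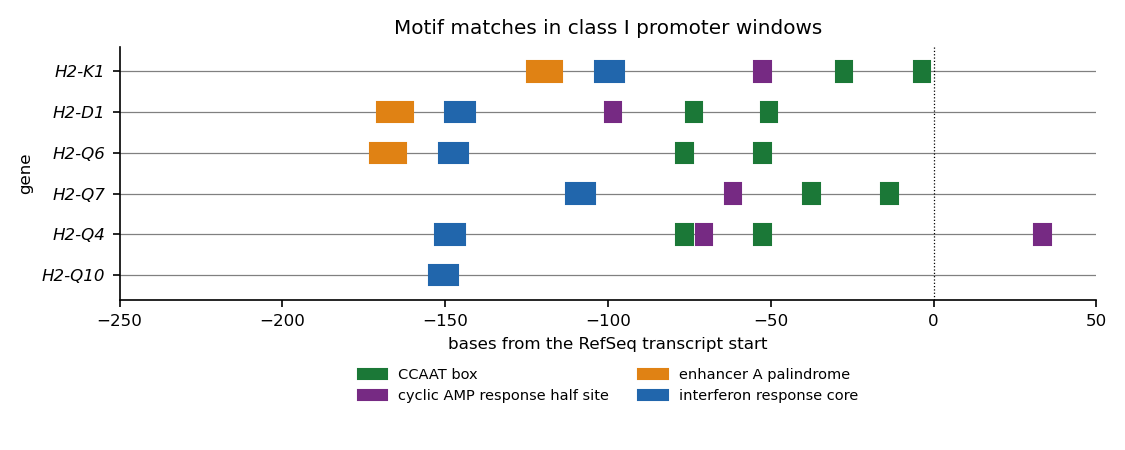
Positions of motif matches in the windows of 6 class I genes, in bases from the RefSeq transcript start (dotted line), with a colour for each motif. The interferon response core is present in all 6 rows, and the row of H2-Q10 holds no other match.

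At E14.5, 21 of the 52 genes passed the filter on low counts and were tested (quasi-likelihood test of edgeR, with p adjusted by Benjamini-Hochberg over 15485 genes and a threshold of 0.05). Between P2 and CD324+ cells 16 of the 21 were called, 2 higher and 14 lower in P2 cells, where 70.3% of all genes tested were called (34.3% higher and 36% lower). The median log2 fold change of the 21 genes was -2.31, beside -0.00899 over all genes. Between P2 and CD31+ cells 16 were called, 4 higher and 12 lower in P2 cells (of all genes 73.3% were called, 34.5% higher and 38.8% lower), with a median of -1.16 beside -0.119. Between CD31+ and CD324+ cells 15 were called, 4 higher and 11 lower in CD31+ cells (of all genes 65.4% were called, 31.6% higher and 33.8% lower), with a median of -0.80 beside -0.0347. The shares called were near those of all genes, and the calls lay mostly on the lower side. Both comparisons with CD324+ cells count *H2-Q1* and *H2-Q2* as lower, and these genes passed the filter only through the CD324+ libraries. By their P2 libraries alone, *H2-Q7*, *H2-K2*, *Nlrc5*, *Psmb8*, and *Cd74* would not have passed it either. The same holds for *H2-Ab1* and *H2-DMa* by their CD324+ libraries. The filter thus favoured 1 direction for these genes, which are part of the counts and the medians. These 3 comparisons share their libraries in pairs. Of all genes called, 48.8% were on the higher side in P2 cells against CD324+ cells, or 37.8% when the authors' own scaling factors replaced TMM. Against CD31+ cells the share was 47.1%, or 33.7% with those factors, which moved the median of all genes to -0.29 and -0.51.

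The heavy chain *H2-K1* (chr17) was highest in CD324+ cells and lowest in CD31+ cells. Its levels were 31.0, 30.98, and 29.97 CPM in P2 cells, 192, 199.5, and 222 CPM in CD324+ cells, and 14.7, 16.1, and 16.4 CPM in CD31+ cells. No group overlapped another. In P2 cells *H2-K1* was lower than in CD324+ cells by a log2 fold change of -2.74 ± 0.09 (SE; adjusted p = 1.79e-09) and higher than in CD31+ cells by 0.96 ± 0.09 (adjusted p = 3.32e-06). The second classical heavy chain, *H2-D1*, spanned a narrower range. It had 47.5, 47.6, and 44.6 CPM in P2 cells, 33.1, 46.9, and 42.0 CPM in CD324+ cells, and 53.3, 61.2, and 55.3 CPM in CD31+ cells. Only the difference between CD31+ and CD324+ cells was called (log2 fold change 0.48 ± 0.12, adjusted p = 0.00627), while P2 cells differed from CD324+ cells by 0.20 ± 0.12 (adjusted p = 0.179). With other scalings and DESeq2 that last value ranged from -0.08 to 0.29 (adjusted p from 0.0342 to 0.535). Against CD31+ cells P2 cells were not called (-0.28 ± 0.12, adjusted p = 0.0615), but were lower by -0.66 with the authors' factors (adjusted p = 0.000286). They also passed as lower with DESeq2 (adjusted p = 0.02145), TMM over the fitted libraries (0.04785), a replicate block (0.0441), and only the 6 libraries compared (0.0228). Over the scalings and DESeq2 the adjusted p reached 0.0783. In bulk libraries fewer cells of a type and less RNA per cell cannot be told apart.

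The ratio of the 2 heavy chains within a library does not depend on the scaling. Per kilobase of exon, *H2-K1* was counted 4.49 ± 0.70 times as often as *H2-D1* in CD324+ cells, 0.578 ± 0.0106 times in P2 cells, and 0.244 ± 0.0153 times in CD31+ cells. The libraries of a group lay close together, from 3.73 to 5.10 in CD324+ cells, 0.571 to 0.590 in P2 cells, and 0.231 to 0.261 in CD31+ cells, and the groups did not overlap. Per length of span the ratios were 5.64 ± 0.87, 0.725 ± 0.0133, and 0.307 ± 0.0192. By either length *H2-K1* was above *H2-D1* in CD324+ cells and below it in the other E14.5 cells. Of the 50-base words of their transcripts, 9.63% of those of *H2-K1* and 12.8% of those of *H2-D1* occur in another gene, so part of their reads could have been assigned elsewhere.

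**Figure D2:**
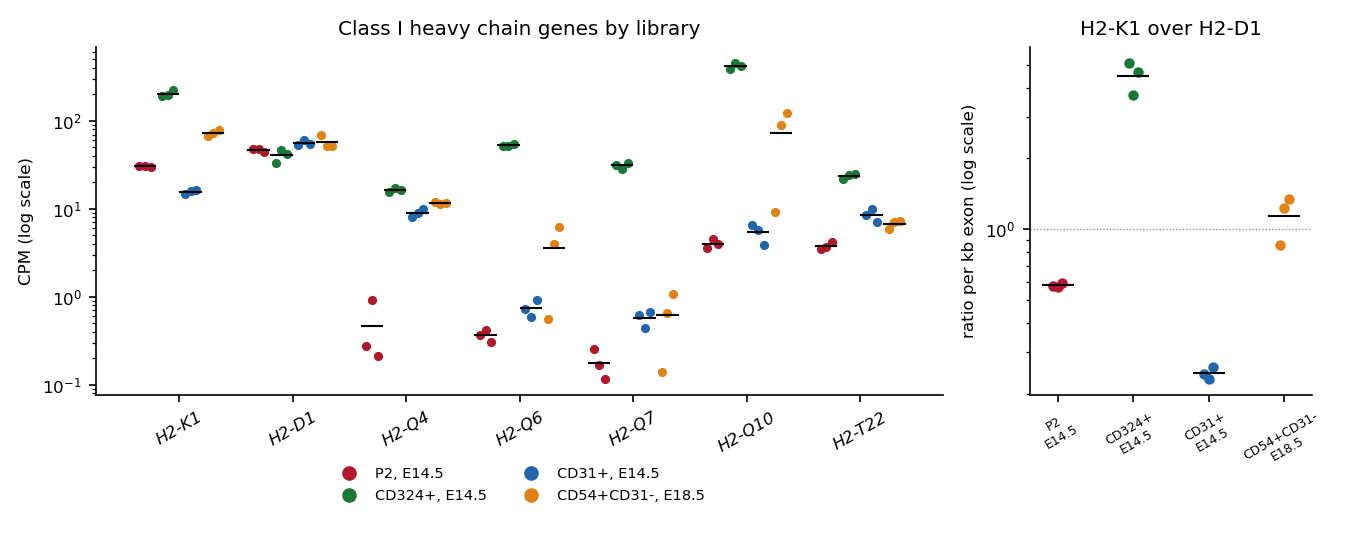
Levels of 7 class I heavy chain genes in the 12 libraries (left; CPM on a log axis, points for libraries, bars for the mean of 3) and the ratio of H2-K1 to H2-D1 per kilobase of exon (right, log axis). H2-D1 spans 33.1 to 69.4 CPM over all libraries, while H2-Q6, H2-Q7, and H2-Q10 are at least an order of magnitude higher in CD324+ cells than in other E14.5 cells.

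The heavy chains of the Q region marked CD324+ cells. Of the 7 Q genes, 6 were tested, and each of the 6 was called lower in P2 cells and in CD31+ cells against CD324+ cells. *H2-Q1* and *H2-Q2* had at most 6 counts in any P2 or CD31+ library and passed the filter only through the CD324+ libraries. The filter thus largely set the direction of their calls. *H2-Q10*, the secreted heavy chain, had 387, 458, and 425 CPM in CD324+ cells, 3.56, 4.49, and 3.95 CPM in P2 cells, and 6.55, 5.70, and 3.93 CPM in CD31+ cells. The level in P2 cells was lower by a log2 fold change of -6.72 ± 0.21 (adjusted p = 1.06e-09). The hepatoblast genes moved the same way, with a median log2 fold change of -6.83 between P2 and CD324+ cells and all 7 called lower, and their part in the Q genes was not tested. *H2-Q6* had 52.8 ± 1.77 CPM in CD324+ cells, 0.364 ± 0.0542 CPM in P2 cells, and 0.742 ± 0.167 CPM in CD31+ cells, and *H2-Q7*, a glycolipid-anchored heavy chain of the Qa-2 type, 31.2 ± 2.31, 0.178 ± 0.0693, and 0.580 ± 0.118 CPM. The log2 fold changes between P2 and CD324+ cells were -7.17 ± 0.19 for *H2-Q6* (adjusted p = 3.37e-10) and -7.46 ± 0.25 for *H2-Q7* (adjusted p = 1.69e-09).

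*H2-Q4*, the Qb-1 heavy chain, was nearer to the level of CD324+ cells in CD31+ cells than in P2 cells. It had 15.7, 17.1, and 16.4 CPM in CD324+ cells, 8.06, 8.94, and 9.89 CPM in CD31+ cells, and 0.275, 0.916, and 0.212 CPM in P2 cells. CD31+ cells were lower than CD324+ cells by only -0.87 ± 0.31 (adjusted p = 0.0310), a call that was lost in 5 of 9 fits without 1 library (adjusted p up to 0.0816). P2 cells were lower than CD31+ cells by -4.25 ± 0.39 (adjusted p = 3.67e-06), and by -5.20 without P2 replicate 2, the library with the most endothelial RNA, where *H2-Q4* was highest. The other Q genes, *H2-Q1* and *H2-Q2*, had 3.84 ± 0.27 and 2.49 ± 0.38 CPM in CD324+ cells and at most 0.108 CPM in every other E14.5 library. Between P2 and CD31+ cells *H2-Q10* (-0.43 ± 0.18, adjusted p = 0.0479) and *H2-Q2* (-1.99 ± 0.81, adjusted p = 0.0454) were called lower, but these calls were lost in 7 and 8 of 9 fits without 1 library. The transcripts of *H2-Q6*, *H2-Q7*, and *H2-Q10* share 35.0%, 26.5%, and 19.1% of their 50-base words with other genes, and how such reads were counted is not stated, so the split among the Q genes is uncertain.

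In the T and M regions, *H2-T22*, a ligand of gamma delta T cells, had 23.6 ± 1.82 CPM in CD324+ cells, 8.46 ± 1.44 CPM in CD31+ cells, and 3.78 ± 0.36 CPM in P2 cells. All 3 differences were called, with the smallest between P2 and CD31+ cells (-1.16 ± 0.15, adjusted p = 5.20e-05). *H2-T10* holds 31.2% of the 50-base words of *H2-T22*, and reads of these genes may not be told apart. *H2-M3*, which presents formylated peptides, had 3.00 ± 0.47 CPM in CD31+ cells, 2.13 ± 0.82 CPM in CD324+ cells, and 0.462 ± 0.130 CPM in P2 cells. P2 cells were lower than both, by -2.69 ± 0.37 against CD31+ cells (adjusted p = 6.88e-05) and -2.20 ± 0.37 against CD324+ cells (adjusted p = 0.000333). The other M genes were near 0, with at most 15 counts in any E14.5 library, and the other T genes had at most 1. *H2-K2*, a class I pseudogene beside *H2-K1*, followed *H2-K1* in CD324+ cells (3.21 ± 0.55 CPM) but was higher in CD31+ (0.621 ± 0.180 CPM) than in P2 cells (0.113 ± 0.0853 CPM; -2.39 ± 0.52, adjusted p = 0.00173, and -2.996 without P2 replicate 3).

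The transporter subunits did not move together. *Tap2* was high in P2 cells (7.53, 8.12, and 9.30 CPM) and in CD31+ cells (9.25, 8.07, and 8.02 CPM) and low in CD324+ cells (1.61, 2.14, and 2.00 CPM). The difference between P2 and CD324+ cells was 2.12 ± 0.17 on the log2 scale (adjusted p = 1.40e-06), and P2 and CD31+ cells overlapped (-0.02 ± 0.16, adjusted p = 0.909). *Tap1* had 3.398, 4.87, and 4.31 CPM in P2 cells, 4.92, 6.61, and 6.59 CPM in CD324+ cells, and 10.51, 10.19, and 10.33 CPM in CD31+ cells. P2 cells were lower than CD31+ cells by -1.30 ± 0.18 (adjusted p = 6.70e-05) and lower than CD324+ cells by -0.53 ± 0.18 (adjusted p = 0.0225), the latter lost in 3 of 9 fits without 1 library. Within a library the ratio of *Tap1* to *Tap2*, per kilobase of exon outside other genes, was 0.155 ± 0.0253 in P2 cells, 0.376 ± 0.0250 in CD31+ cells, and 0.963 ± 0.0403 in CD324+ cells, with no overlap between groups. Divided by span outside other genes in place of exon length, the ratios were 0.412 ± 0.0673, 1.00 ± 0.0667, and 2.57 ± 0.11. The order of the groups does not depend on the length used, but which subunit was the higher within a group does, and was not read. *Gm15821* and *Gm20496* overlap *Tap2*, and that part of its span is not in its counts. *Tapbp*, which encodes tapasin, had between 23.8 and 31.5 CPM in all 9 E14.5 libraries. It was called higher in P2 than in CD31+ cells by 0.27 ± 0.09 (adjusted p = 0.0197), but with the authors' scaling factors the difference was -0.11.

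The immunoproteasome genes and *Nlrc5* had their lowest means in P2 cells. *Psmb9* had 0.298, 0.333, and 0.424 CPM in P2 cells, 1.47, 2.23, and 1.85 CPM in CD324+ cells, and 1.15, 0.784, and 1.25 CPM in CD31+ cells. P2 cells lay below both without overlap, by -2.38 ± 0.34 (adjusted p = 0.000106) and -1.58 ± 0.34 (adjusted p = 0.00158). CD31+ cells were called lower than CD324+ cells by -0.80 ± 0.31 (adjusted p = 0.0449), but with the replicate number as a block the adjusted p was 0.0610, and the call was lost in 8 of 9 fits without 1 library. *Psmb8*, which lies partly in *Gm20496*, had 1.61 ± 0.16 CPM in CD31+ cells, 0.611 ± 0.334 CPM in CD324+ cells, and 0.278 ± 0.271 CPM in P2 cells. It was called lower in P2 than in CD31+ cells (-2.50 ± 0.72, adjusted p = 0.00941). Its 1, 27, and 13 counts in the P2 libraries were uneven, and without replicate 2, which had the most, the difference was -3.48. Against CD324+ cells it was not called (-1.11 ± 0.74, adjusted p = 0.203), but was without that library (-2.09, adjusted p = 0.0322). *Nlrc5* had 3, 14, and 11 counts in P2 cells (0.191 ± 0.113 CPM), against 0.959 ± 0.497 CPM in CD324+ cells and 0.806 ± 0.380 CPM in CD31+ cells. Both differences were called (-2.31 ± 0.62, adjusted p = 0.00692, and -2.05 ± 0.62, adjusted p = 0.0116). A list of 7 genes held the constitutive counterparts, activators, and an assembly factor of the proteasome. Of these, 5 were called higher and 0 lower in P2 against CD31+ cells (4 and 1 with the authors' factors). Against CD324+ cells 3 were higher and 3 lower (1 and 3 with those factors). *Psme3*, the nuclear activator, was among the higher ones (255 CPM in P2, 94.4 in CD324+, and 80.8 in CD31+ cells).

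**Figure D3:**
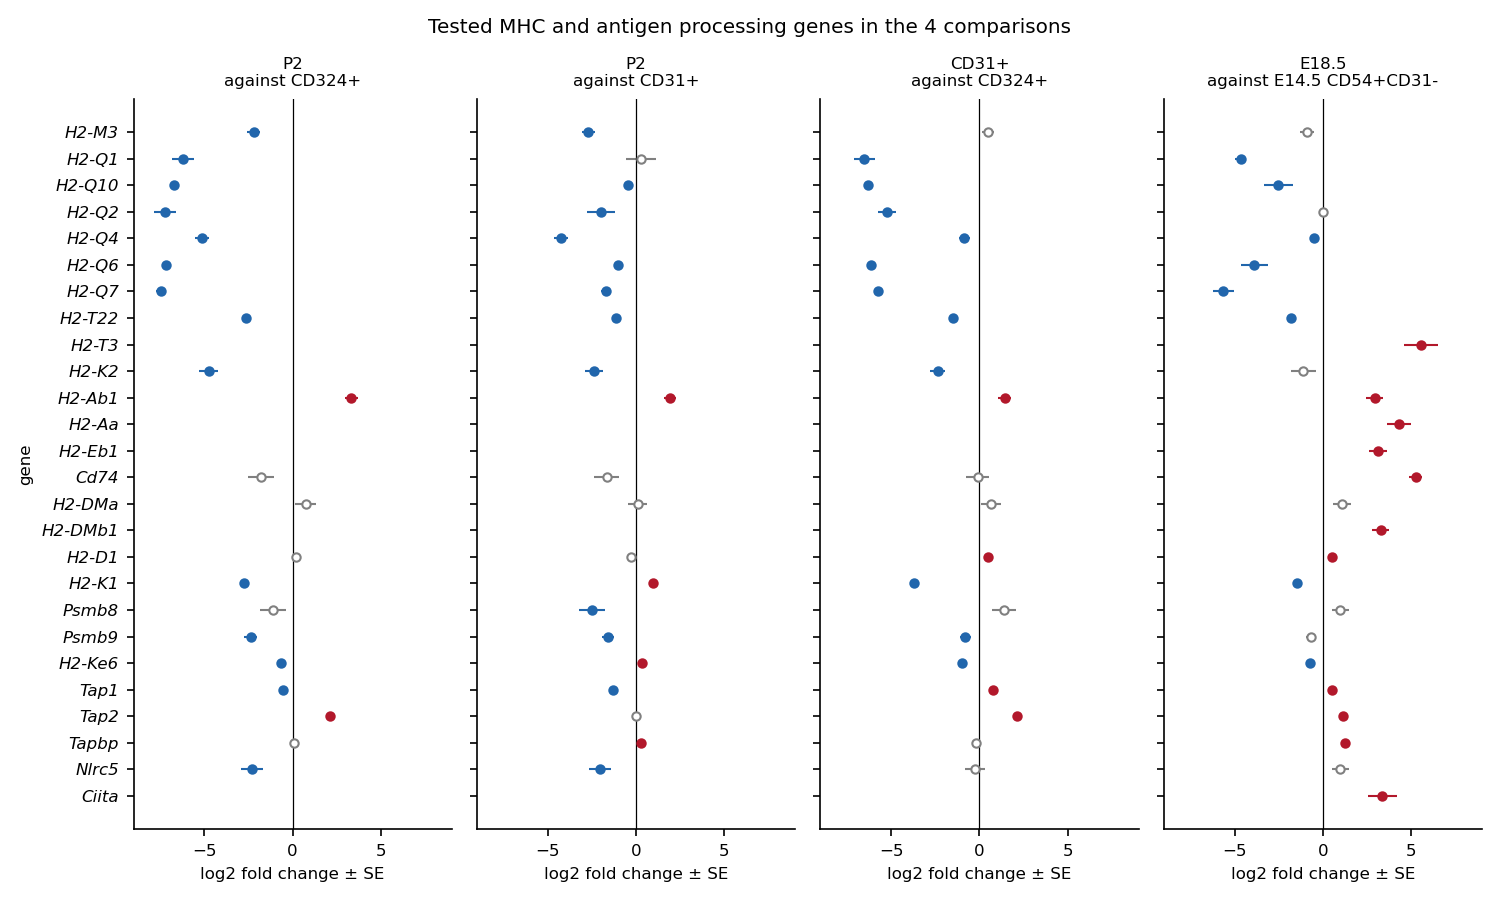
Log2 fold changes (points) with their standard errors (bars) in the 4 comparisons, for the tested genes with counts in both groups. Filled red points were called higher and filled blue points lower in the first-named cells, and open points were not called. The Q genes lie far left in both comparisons with CD324+ cells, except H2-Q4 in CD31+ cells, and the class II genes Cd74, H2-Aa, H2-Eb1, and H2-DMb1 lie right in the column of E18.5.

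Class II genes were low at E14.5, and *H2-Ab1* was called higher in P2 cells against both other groups. *H2-Ab1*, which encodes the beta chain of I-A, had 86, 132, and 104 counts in P2 cells (2.24 ± 0.44 CPM), 8, 5, and 11 counts in CD324+ cells (0.218 ± 0.0574 CPM), and 23, 43, and 38 counts in CD31+ cells (0.594 ± 0.177 CPM). P2 cells were above every other E14.5 library, by 3.33 ± 0.39 against CD324+ cells (adjusted p = 2.13e-05) and 1.91 ± 0.34 against CD31+ cells (adjusted p = 0.000463). Its partner *H2-Aa*, the alpha chain, had 0, 0, and 1 counts in the same P2 libraries and at most 4 counts in any E14.5 library. *Cd74* had 10, 10, and 1 counts in P2 cells, with log2 fold changes of -1.77 ± 0.74 against CD324+ cells (adjusted p = 0.0531) and -1.66 ± 0.73 against CD31+ cells (adjusted p = 0.0603). Both passed as lower in P2 cells with DESeq2 (adjusted p = 0.0355 and 0.0410), the authors' factors (0.0361 and 0.0316), and all 12 libraries in one fit (0.0336 and 0.0372). *Ciita* had 0, 4, and 0 counts in P2 cells. *H2-Eb1* had at most 14 counts and *H2-DMb1* at most 8 in any E14.5 library. *H2-DMa*, a subunit of the DM peptide exchanger, had 0.725 ± 0.243, 0.433 ± 0.253, and 0.678 ± 0.314 CPM in P2, CD324+, and CD31+ cells and was called in no E14.5 comparison. The markers of cells that usually carry class II were low in P2 cells. The 10 macrophage genes summed to 6.38 to 9.84 CPM there, against 50.2 to 96.4 CPM in CD31+ and 139 to 238 CPM in CD324+ cells, 8 dendritic cell genes summed to 71.3 to 77.7 CPM, of which *Zbtb46* alone, a transcription factor that endothelial and erythroid cells also use, made up 74.0 ± 3.06 CPM, while *Ccr7*, *Itgax*, and *Siglech* were at 0, and 8 B cell genes summed to 1.06 to 1.54 CPM, with *Ms4a1* at 0. *Ms4a1* lies wholly in another gene and was at 0 in all 12 libraries. The part of such cells in the level of *H2-Ab1* was not tested. The exons of *H2-Ab1* hold 2568 of the 11731 bases of its span. Counts that behave as those of whole spans without strand do not show whether the reads came from its transcript. This was not tested either.

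The genes around the group were described by lists. Beside the counts below stand the shares of all genes called, which were 70.3% for P2 against CD324+ cells, 73.3% for P2 against CD31+ cells, and 65.4% for CD31+ against CD324+ cells. Of 17 interferon-stimulated genes tested, all 17 were called lower in P2 cells against CD31+ cells (median log2 fold change -3.08, beside -0.119 for all genes) and 13 against CD324+ cells (median -2.61), with 17 and between 12 and 14 called under each of the 4 scalings. The largest differences against CD31+ cells were those of *Cxcl9*, a chemokine (0.00642 CPM in P2 and 1.70 ± 1.71 CPM in CD31+ cells), *Iigp1*, a GTPase (0.129 and 3.78 CPM), and *Ifitm3*, an antiviral membrane protein (1.07 and 25.3 CPM). Between CD31+ and CD324+ cells 10 were higher in CD31+ cells and 3 lower. Of the 19 interferon-stimulated genes found, those above 1 CPM numbered 7 for P2, 13 for CD324+, and 16 for CD31+. A gene near 0 in P2 cells, such as *Cxcl9*, passed the filter on low counts only through other libraries. For such genes the filter largely set the direction of the calls, and they are part of the counts and medians of both P2 comparisons. How many of the 17 were of this kind was not counted. Among 12 genes of interferon receptors and signalling, 8 were lower and 1 higher in P2 cells against CD31+ cells, and 7 lower and 3 higher against CD324+ cells. *Irf1*, a transcription factor that acts on class I genes, had 1.34 ± 0.53 CPM in P2, 17.9 ± 2.58 CPM in CD324+, and 35.3 ± 20.0 CPM in CD31+ cells (-3.73 ± 0.44 and -4.71 ± 0.45, adjusted p = 2.21e-05 and 4.45e-06), and *Ifngr1*, the ligand-binding chain of the interferon gamma receptor, was higher in P2 cells (136 CPM) than in CD324+ (76.8 CPM) and CD31+ cells (73.3 CPM). *Irf8*, *Cxcl10*, *Igtp*, and *Tapbpl* were at 0 in all 12 libraries, and each lies wholly or to over 99% in another gene.

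Of 7 genes for peptide loading and trimming, 6 were lower in P2 cells against CD324+ cells, among them *Hspa5*, a chaperone (522 against 2098 CPM), and *Calr*, or calreticulin (1152 against 3421 CPM), whereas against CD31+ cells 3 were lower and 3 higher. The latter split moved to 4 lower and 0 higher with the authors' factors. Of 7 factors that bind MHC promoters together, 3 were higher and 1 lower in P2 cells against CD324+ cells, with *Nfya*, a subunit of the CCAAT-binding factor, at 100 against 38.0 CPM and *Nfyb* at 94.6 against 150 CPM. These 4 of 7 are no larger a share than the 70.3% of all genes. Against CD31+ cells the counts were also 3 and 1, but 1 higher and 4 lower with the authors' factors. Of 6 genes for peptide processing in the class II pathway, 5 were lower in P2 cells against each of the other E14.5 groups, with the protease *Ctss* at 0.700, 18.5, and 5.16 CPM in P2, CD324+, and CD31+ cells. The exception was *Ifi30*, a thiol reductase, which was higher in P2 cells (64.3 CPM) than in CD324+ (23.5 CPM) and CD31+ cells (9.60 CPM). Of 8 class I-like genes outside the MHC, 7 were lower in P2 cells against CD31+ cells, led by *Procr* (0.102 against 5.65 CPM) and *Fcgrt*, the neonatal Fc receptor (2.15 against 105 CPM). Against CD324+ cells 3 were lower and 1 higher. In CD31+ cells against CD324+ cells the counts were 0 higher and 6 lower for peptide loading, 1 and 5 for the proteasome, 7 and 2 for interferon receptors and signalling, 3 and 3 for the promoter-binding factors, 1 and 4 for class II processing, and 5 and 1 for the class I-like genes.

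Between CD54+CD31- cells of E18.5 and E14.5, 5 of 6 class II chains and chaperones tested, *Tap2*, and *Tapbp* were higher at E18.5, and *H2-K1*, *H2-T22*, and 5 of 6 Q genes tested were lower. Of the 52 genes, 27 were tested among 15889, 20 were called, 12 higher and 8 lower (of all genes 70.4% were called, 31.4% higher and 38.9% lower). The median log2 fold change was 0.50, beside -0.156 over all genes. *H2-Aa*, *H2-Eb1*, *H2-DMb1*, *Ciita*, *H2-T3*, and *H2-M5* had at most 7 counts in any CD324+ library of E14.5. They passed the filter on low counts only through the E18.5 libraries. So did *H2-Ab1*, with 8, 5, and 11 counts in CD324+ cells, and *H2-DMa*, which was not called. *H2-Q1* and *H2-Q7* passed only through the CD324+ libraries. The filter thus largely set the direction of these calls, which are part of the counts and of the median. Without E18.5 replicate 1, 21 were called, including the same 20. Of all genes called, 44.7% were higher at E18.5, against 60.8% with the authors' factors and between 51.5% and 52.8% with DESeq2, its size factors, or TMM over the 6 libraries. With the authors' factors, which moved the median of all genes to 0.27, 15 of the MHC and antigen processing genes were higher and 6 lower. The comparison of ages cannot be told apart from one of tissues, since all 10 alveolar type 2, all 8 alveolar type 1, all 8 mesothelial, and all 8 mesenchymal markers were also called higher at E18.5.

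*Cd74*, the invariant chain, had 1875, 1178, and 1135 counts at E18.5 (29.0, 15.2, and 15.7 CPM) and 23, 13, and 20 counts in CD324+ cells of E14.5 (0.651, 0.409, and 0.493 CPM). The lowest E18.5 library was above every E14.5 library, and the log2 fold change was 5.26 ± 0.36 (adjusted p = 4.29e-05), or 4.89 without replicate 1. The chains *H2-Aa*, *H2-Ab1*, and *H2-Eb1* had 0.937 ± 0.0871, 1.68 ± 0.79, and 0.951 ± 0.127 CPM at E18.5, with log2 fold changes of 4.29 ± 0.68 (adjusted p = 0.00123), 2.92 ± 0.50 (adjusted p = 0.00179), and 3.09 ± 0.51 (adjusted p = 0.00151). The value of *H2-Aa* rests on 1, 0, and 4 counts at E14.5 and was 5.78 without CD324+ replicate 3. *H2-DMb1* had 142, 65, and 97 counts against 5, 6, and 5 (3.26 ± 0.49, adjusted p = 0.00103), and *H2-DMa* was not called (1.08 ± 0.53, adjusted p = 0.109) but passed with DESeq2 (adjusted p = 0.0323) and the authors' factors (0.0347). Without replicate 1 the values were 3.23 for *H2-Ab1* and 2.85 for *H2-DMb1*. *Ciita* had 33, 52, and 46 counts against 0, 5, and 1, a log2 fold change of 3.36 ± 0.81 (adjusted p = 0.00874), or 5.32 without CD324+ replicate 2. The markers of cells that usually carry class II are set beside these values. The 10 macrophage genes summed to 53.8, 177, and 167 CPM at E18.5 and 139, 143, and 238 CPM at E14.5, with 2 called higher, and 8 B cell genes to 17.5 to 22.99 CPM at E18.5 and 2.09 to 6.55 CPM at E14.5, with 2 of 5 tested called higher, of which *Ebf1*, also used by mesenchymal cells, alone had 12.8 ± 1.81 CPM at E18.5. Of 8 dendritic cell genes, 2 of 5 tested were called higher, with sums of 11.4 to 17.5 CPM at E18.5 and 12.4 to 17.5 CPM at E14.5. Their part in the class II result was not tested.

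**Figure D4:**
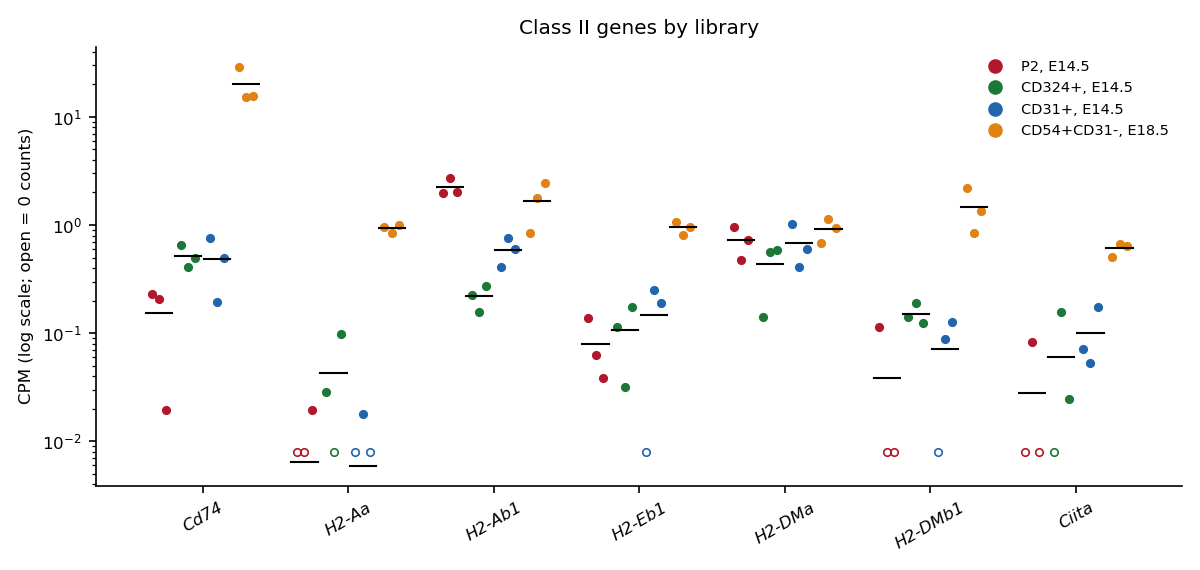
Levels of 7 class II genes in the 12 libraries (CPM on a log axis; open points at the bottom mark 0 counts, bars the mean of 3). All 3 E18.5 libraries lie above every E14.5 library for Cd74, H2-Aa, H2-Eb1, H2-DMb1, and Ciita, and H2-Ab1 overlaps between P2 cells and E18.5.

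The class I side moved in both directions. *H2-K1* had 67.6, 72.4, and 79.0 CPM at E18.5 and was lower than at E14.5 by -1.49 ± 0.11 (adjusted p = 4.91e-05). *H2-D1* had 69.4, 51.6, and 51.7 CPM and was called higher (0.50 ± 0.18, adjusted p = 0.0382), with the call lost in 2 of 6 fits without 1 library. The ratio of *H2-K1* to *H2-D1* was 0.855, 1.23, and 1.34 at E18.5, below every CD324+ library of E14.5. *H2-Q4*, *H2-Q6*, *H2-Q7*, and *H2-Q1* were lower at E18.5, with log2 fold changes from -0.50 ± 0.10 for *H2-Q4* (adjusted p = 0.00365) to -5.63 ± 0.60 for *H2-Q7* (adjusted p = 0.000203), although that of *H2-Q4* was -0.08 and not called with the authors' factors. *H2-Q6* and *H2-Q7* were -4.53 and -6.25 without E18.5 replicate 3, and -3.38 and -5.18 without replicate 1. *H2-T22* was lower by -1.81 ± 0.13 (adjusted p = 4.86e-05). *H2-Q2* overlapped, with 2.80, 2.16, and 2.44 CPM against 2.91, 2.39, and 2.17 CPM (-0.02 ± 0.22, adjusted p = 0.955). *Tapbp* rose from 28.5 ± 1.66 to 68.9 ± 11.7 CPM (1.27 ± 0.14, adjusted p = 0.000214), *Tap2* from 1.92 ± 0.27 to 4.21 ± 0.53 CPM (1.14 ± 0.20, adjusted p = 0.00233), and *Tap1* from 6.04 ± 0.97 to 8.45 ± 1.13 CPM (0.49 ± 0.18, adjusted p = 0.0455, lost in 5 of 6 fits without 1 library). *Nlrc5* was not called (0.99 ± 0.46, adjusted p = 0.0913) but passed without replicate 1 (1.25, adjusted p = 0.0181), without CD324+ replicate 3 (1.51, adjusted p = 0.0284), with DESeq2 (adjusted p = 0.0183), with its size factors (0.0483), and with the authors' factors (0.0251). *Psmb8* was not called (0.99 ± 0.48, adjusted p = 0.104) but passed as higher with DESeq2 (adjusted p = 0.0261) and the authors' factors (0.0307). *Psmb9* was not called (-0.67 ± 0.26, adjusted p = 0.0539) but passed as lower without CD324+ replicate 1 (adjusted p = 0.0336) and with a minimum of 10 counts (0.0348).

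Some genes at 0 or nearly so in CD324+ cells of E14.5 had counts at E18.5. *H2-T3*, the thymus leukemia antigen, had 46, 50, and 18 counts against 1, 0, and 0 (adjusted p = 0.00193). *H2-M5* had 23, 28, and 20 counts against 0 in each CD324+ library, at least 11.9-fold higher when 3 counts over the group are taken as the floor (adjusted p = 0.00182), and it had 5, 10, and 15 counts in CD31+ cells. *H2-Ke6*, which despite its name encodes a hydroxysteroid dehydrogenase and shares 70.5% of its 50-base words with *Gm20427*, was between 8.08 and 19.1 CPM in all 12 libraries. It was called lower than in CD324+ cells in P2 cells (-0.678 ± 0.115, adjusted p = 0.000357) and CD31+ cells (-0.991 ± 0.116, adjusted p = 2.73e-05). It was called higher in P2 than in CD31+ cells (0.313 ± 0.115, adjusted p = 0.0304), which was lost in 4 of 9 fits without 1 library. At E18.5 it was called lower (-0.731), but not with the authors' factors (-0.307).

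The 3 E18.5 libraries differed among themselves in a way that split the group. Of 25 genes with at least 30 counts in an E18.5 library, 11 were lower in replicate 1 than in the other 2 libraries, 10 were higher, and 4 lay between. *Alb*, the hepatocyte albumin gene, was at 0.0787 times the mean of replicates 2 and 3 in replicate 1, and *Sftpc*, a surfactant gene of alveolar type 2 cells, at 2.36 times. *H2-Q10* (0.0876), *H2-K2* (0.103), *H2-Q6* (0.109), and *H2-Q7* (0.161) lay near *Alb*. *H2-Q10*, with 9.27, 90.0, and 122 CPM, was lower than at E14.5 by -2.52 ± 0.81 (adjusted p = 0.0273), by -1.999 without replicate 1 (adjusted p = 3.40e-06), and its call was lost in 4 of the 5 other fits without 1 library. *H2-DMb1* (2.01) and *Cd74* (1.88) were the highest ratios of the group. They lay between *Sftpc* and *Icam1* (1.74), the gene of the sort marker CD54. Other genes outside the group were also uneven, with *Lyz2* at 2.67, *Cdh1* at 1.38, and *Ptprc* at 0.233. *Tapbp* (1.33) and *H2-D1* (1.34) were also higher in replicate 1. Of the chains, *H2-Aa* (1.04) and *H2-Eb1* (1.20) were even, whereas *H2-Ab1* (0.406) was lower in replicate 1. These are values of 3 libraries, given with no test.

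**Figure D5:**
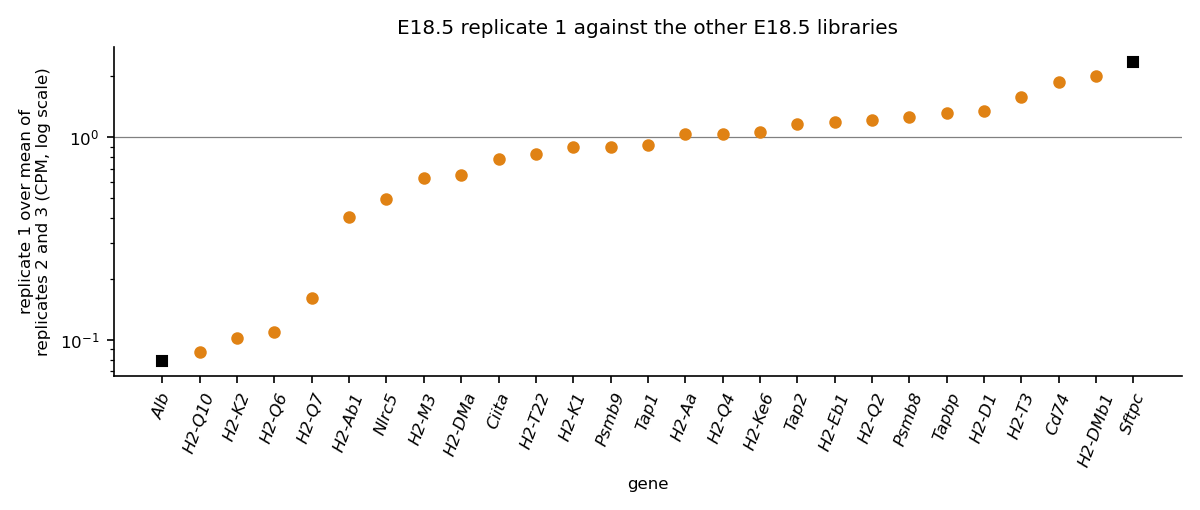
Level in E18.5 replicate 1 divided by the mean of replicates 2 and 3 (log axis), for 25 MHC and antigen processing genes (orange) and the markers Alb and Sftpc (black squares). The ratios of the 25 genes run from 0.0876 for H2-Q10 to 2.01 for H2-DMb1. Other genes outside the group are not drawn.

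The surrounding lists at E18.5 stand beside 70.4% of all genes called (31.4% higher and 38.9% lower). All 7 genes of the proteasome list (constitutive subunits, activators, and an assembly factor) were lower (median -1.31, and -0.89 with the authors' factors), with *Psmb6* at 37.3 ± 2.90 against 160 ± 19.7 CPM. Of 17 interferon-stimulated genes, 8 were higher and 3 lower, or 11 and 2 with each of the other scalings, led by *Iigp1* (30.4 against 1.36 CPM) and *Oasl2* (16.6 against 1.27 CPM). Of 12 genes of interferon receptors and signalling, 2 were higher and 6 lower, or 5 higher and 3 lower with the authors' factors. Of 7 peptide loading genes, 5 were lower and 1 higher, or 5 and 2 with the authors' factors. Of 7 promoter-binding factors, 2 were higher and 2 lower, or 3 and 1 with the authors' factors. Of 6 class II processing genes, 3 were lower and 1 higher, and 2 in each direction with the authors' factors. Of 7 class I-like genes, 3 were higher and 2 lower, or 4 and 0 with the authors' factors, with *Mr1*, which presents vitamin metabolites, at 5.38 against 0.469 CPM.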

How the data were processed

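The authors made stranded total RNA libraries from sorted cells after removing ribosomal RNA and, per the labels and the submitters' processing notes, used cutadapt 1.11, STAR 2.5.0a, featureCounts 1.4.6-p3, and DESeq2 in R 3.5.1 with GRCm38. Strand setting, treatment of multiply aligned reads, and annotation release are not given in the sources used here. The authors deposited raw counts per gene, and a score that is the count times 1 factor per library, rounded. Counts were used for all tests, and the score only to read that factor.

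Counts were fitted with edgeR 4.0.16 (R 4.3.3; filterByExpr, quasi-likelihood test, Benjamini-Hochberg over all genes tested, threshold 0.05), with TMM factors over the 12 libraries. The 9 E14.5 libraries formed 1 fit and the 6 CD54+CD31- libraries another. SE is the log2 fold change divided by the root of F. Fits were tested on simulated data, where part of the true changes were not called. A gene that was not called may therefore still differ. Precision is limited by 3 libraries per group and, for genes with few counts, by depth. Gene positions are from GENCODE vM21, where all 52 identifiers were found, and shared words were counted over its transcripts. RefSeq windows of 300 bases were used for 38 of the 52 genes. Windows on chromosome 18, which holds *Cd74*, were left out.

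The genes, lists, and alternatives were chosen with earlier results of these data known. All 52 genes could be named, and from each surrounding list at most the 3 largest called changes per direction. The alternatives were DESeq2 1.42.0 and its size factors, the authors' factors, TMM over the fitted libraries, no filter, a minimum of 10 counts, a replicate block, other libraries in the fit, genes above 1% of a library left out, and each library left out. Ratios per span were added after seeing the data. Replicate numbers come from the labels. Deviations of same-numbered libraries correlated at 0.312, 0.219, and 0.107 between CD31+ and CD324+ cells. These groups may thus be paired by number, though the labels give the number alone. The main fits used no pairing.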

Additional observations from a re-analysis of the deposited data

How the results depend on the processing

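The number of genes called was within 1.5 times that reported under every alternative except a minimum of 10 counts in every fitted library. That filter tests fewer genes and gave 10 calls for P2 against CD324+ cells, 10 for P2 against CD31+ cells, and 12 for E18.5, of which 10, 10, and 11 were among those reported. Without 1 library the calls numbered 15 to 17 for P2 against CD324+ cells, 12 to 16 for P2 against CD31+ cells, 13 to 15 for CD31+ against CD324+ cells, and 18 to 21 for E18.5. With the replicate block they numbered 16, 15, 14, and 18. In the CD31+ and CD324+ groups all 6 libraries correlated best with their own number. Between these groups the block ended the call of *Psmb9* (adjusted p = 0.0610) and changed no other call. In the other comparisons the correlations ran from -0.00559 to 0.302. Of 6 libraries each, 3, 4, and 4 correlated best with their own number for P2 against CD324+ cells, P2 against CD31+ cells, and E18.5, a hint from the data and not from the design. There the block ended the calls of *H2-Q10* and *H2-Q2* and added *H2-D1* for P2 against CD31+ cells, and ended those of *H2-D1* and *Tap1* at E18.5.

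Log2 fold changes that turned were small or not called. With the authors' factors, for P2 against CD324+ cells, *H2-D1* was -0.0792 and *Tapbp* -0.207 (adjusted p = 0.0390). For P2 against CD31+ cells they gave -0.0660 for *H2-Q1*, -0.310 for *H2-DMa*, -0.0692 for *H2-Ke6*, and -0.111 for *Tapbp*, and for CD31+ against CD324+ cells 0.000193 for *Cd74*. *H2-Q2* at E18.5 was 0.405 with the authors' factors, 0.184 with the size factors of DESeq2, 0.169 with TMM over the fitted libraries, and 0.205 with DESeq2, and *Tap2* for P2 against CD31+ cells was 0.0244 with the size factors of DESeq2. Without 1 library, *H2-Q2* at E18.5 ranged from -0.116 to 0.113. For P2 against CD31+ cells *Tap2* ranged from -0.1099 to 0.0485, *H2-Q1* from -0.370 to 1.33, and *H2-DMa* from -0.164 to 0.511. For CD31+ against CD324+ cells *Cd74* ranged from -0.582 to 0.261 and *Nlrc5* from -0.6195 to 0.259. The cause was not tested.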

Other observations

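Of the genes that reached 1 CPM on average in some group, 21 in all, 11 were highest in CD324+ cells, 5 at E18.5, 4 in CD31+ cells, and 1, *H2-Ab1*, in P2 cells. Genes above 1 CPM on average numbered 9 in P2, 16 in CD324+, 12 in CD31+, and 19 in E18.5 cells. Before other data are set beside these counts, *B2m*, *Psmb10*, and *H2-T23* would need to be counted again over exons with strand.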
